A study of Mus musculus with 20 samples.

Results

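The genes described here are 8 mediators of inflammation, chosen by name: the cytokines Il1b, Il6 and Tnf, the chemokines Ccl2 and Cxcl10, the pattern receptor Tlr2, the protease Casp1 and the adhesion molecule Icam1. Each name matched a single row among the 25190 genes of the count table, so all 8 are accounted for. They were read in bulk RNA-seq of hippocampal tissue from wild-type C57BL/6JOlaHsd male mice, 4 months old, in 4 groups of 5 libraries each, with tissue taken 24 hours after behavioural testing ended. Vehicle mice received artificial cerebrospinal fluid with no RNA, Control mice received small RNAs (sRNAs) pooled from post-mortem hippocampi of people without psychiatric illness, and the sRNAs given to Pool 1 and Pool 2 mice came from separate cohorts of patients with schizophrenia. All 4 groups carried bilateral cannulas aimed at CA1 of the dorsal hippocampus and went through the behavioural tests. Every mouse of an sRNA group received the same pool, so the libraries do not count donors.

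These genes belong to a shared circuit of innate immunity. Toll-like receptors such as Tlr2 sense microbial products and damaged cells and switch on the transcription factor NF-kB, which drives Il1b, Il6, Tnf, Ccl2 and Icam1. Caspase 1, the enzyme of the inflammasome, cuts the interleukin 1 beta precursor into its active form. Ccl2 draws monocytes through the receptor Ccr2, Cxcl10 draws T cells through Cxcr3 and responds to interferon, and Icam1 on blood vessels holds leukocytes through their integrins. In healthy brain most of these transcripts are scarce and come from microglia, endothelium and astrocytes.

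The upstream sequences of the genes are shown because regulation by NF-kB or interferon is what links several of them. RefSeq promoters (GRCm38.p6) matched 7 of the 8 genes, with no entry for Ccl2, and the 250 bases before each start were searched on both strands for the NF-kB consensus, for the interferon-stimulated response element GAAANNGAA and for the TATA box TATAAA. The NF-kB consensus was found in 3 of 7 promoters (Cxcl10, Tlr2 and Il6), against 7.25% of all 32851 promoters. The interferon element was found in 1 of 7 (Cxcl10), against 7.13% of all promoters, and the TATA box in 2 of 7 (Il1b and Tnf), against 12.4%. A match describes letters in this window and is not evidence of binding. Capitals below mark the NF-kB consensus and, in Cxcl10 nearest its 5′ end, the interferon element. The 3 sequences run 5′ to 3′ on the strand of the gene, at chr5:92348890-92349139 (minus strand), chr5:30012864-30013113 (plus strand) and chr9:21015690-21015939 (plus strand). Icam1 is shown as a window with no exact match to the 3 motifs, and Casp1 had none either. The search allowed no mismatch, so a lack of a match does not mean a lack of a site. The Icam1 window holds tggaaattcc, which differs from the NF-kB consensus only in its first base.
Cxcl10: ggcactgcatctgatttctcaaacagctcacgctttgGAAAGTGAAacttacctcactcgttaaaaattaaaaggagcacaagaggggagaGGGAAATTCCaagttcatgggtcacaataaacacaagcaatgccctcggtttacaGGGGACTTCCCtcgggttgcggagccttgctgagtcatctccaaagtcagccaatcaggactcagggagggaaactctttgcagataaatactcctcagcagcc
Il6: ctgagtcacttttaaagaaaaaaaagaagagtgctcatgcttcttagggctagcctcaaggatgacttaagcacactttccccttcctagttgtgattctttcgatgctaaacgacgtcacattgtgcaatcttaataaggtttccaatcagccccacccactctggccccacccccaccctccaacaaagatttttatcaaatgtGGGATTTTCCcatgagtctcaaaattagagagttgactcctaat
Icam1: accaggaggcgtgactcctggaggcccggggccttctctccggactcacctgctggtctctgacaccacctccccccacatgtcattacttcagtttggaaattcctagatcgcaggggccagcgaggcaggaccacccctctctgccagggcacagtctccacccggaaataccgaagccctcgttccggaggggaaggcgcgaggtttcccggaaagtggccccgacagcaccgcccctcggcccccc
In Cxcl10 the interferon element lay 213 to 205 bases before the start and the NF-kB matches lay 159 to 150 and 104 to 94 bases before it, the latter being 2 overlapping matches. In Il6 the match lay 44 to 35 bases before the start. In Tlr2 the overlapping matches lay 173 to 163 bases before the RefSeq start and held GGGAATTCCC, the longer window not being printed because it runs into the first exon of the GENCODE gene model.

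The 20 libraries held 20588280 to 25543939 counts. The excitatory neuron marker Slc17a7 stood at 1115 to 1835 CPM (the read count of a gene relative to the TMM-scaled size of its library) and the CA1 marker Fibcd1 at 98.9 to 282 CPM, so both were present in every library. At this depth a floor of 3 counts in a library equals 0.117 to 0.146 CPM. A gene was taken as near this floor where its median count over the 20 libraries was 10 or fewer, which held for 5 of the 8: Il6 (median 1 count, at or under the floor in 18 libraries and at 0 in 7), Tnf (median 1, in 16 libraries, 7 of them at 0), Ccl2 (median 3, in 11 libraries), Il1b (median 3.5, in 10 libraries) and Cxcl10 (median 7.5, in 4 libraries). Casp1, Tlr2 and Icam1 had median counts of 37, 38.5 and 63.5 and were over the floor in every library. Per kilobase of merged exon, the median level ran from 1.05 CPM for Casp1 through 0.612 for Icam1, 0.541 for Tlr2, 0.147 for Cxcl10, 0.110 for Ccl2, 0.0841 for Il1b and 0.0251 for Tnf to 0.0175 for Il6. Where the median count of both groups was 3 or fewer, no fold change is given.

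A single library, Pool 2 replicate 1, stood apart before any group comparison. It held the highest level of 7 of the 8 genes over all 20 libraries, and the exception, Il6, was second there with 4 counts behind the 5 counts of Vehicle replicate 4. Its Cxcl10 level was 34.9 times the median of the other 19 libraries, its Tnf level 21.5 times and its Ccl2 level 19.9 times. For Il1b the ratio was 8.84, for Tlr2 6.09, for Icam1 5.25, for Casp1 4.72 and for Il6 4.34. Even against the next highest library it was 2.22 times as high for Tlr2, at the low end of the 7 genes it led, and 6.33 times as high for Ccl2, at the high end. It was not shallow, with 21562625 counts. Of the 16660 genes whose mean normalized count reached 10, 11.5% had their highest value in it. By that measure it was close to Pool 1 replicate 5 (10.4%) and Control replicate 1 (9.93%). By another measure it was not. Of the same genes, 3.68% were at least 2-fold above the median of all libraries in it. That share was 0.8% in Pool 1 replicate 5, 0.64% in Control replicate 1 and 2.03% in Vehicle replicate 4, the next highest. At least 2-fold below were 0.85% in it, against 2.67% in Pool 1 replicate 5 and 2.43% in Control replicate 1. The calls of the 8 genes in comparisons that involve Pool 2 are given with and without Pool 2 replicate 1, except those of DESeq2.

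**Figure D1:**
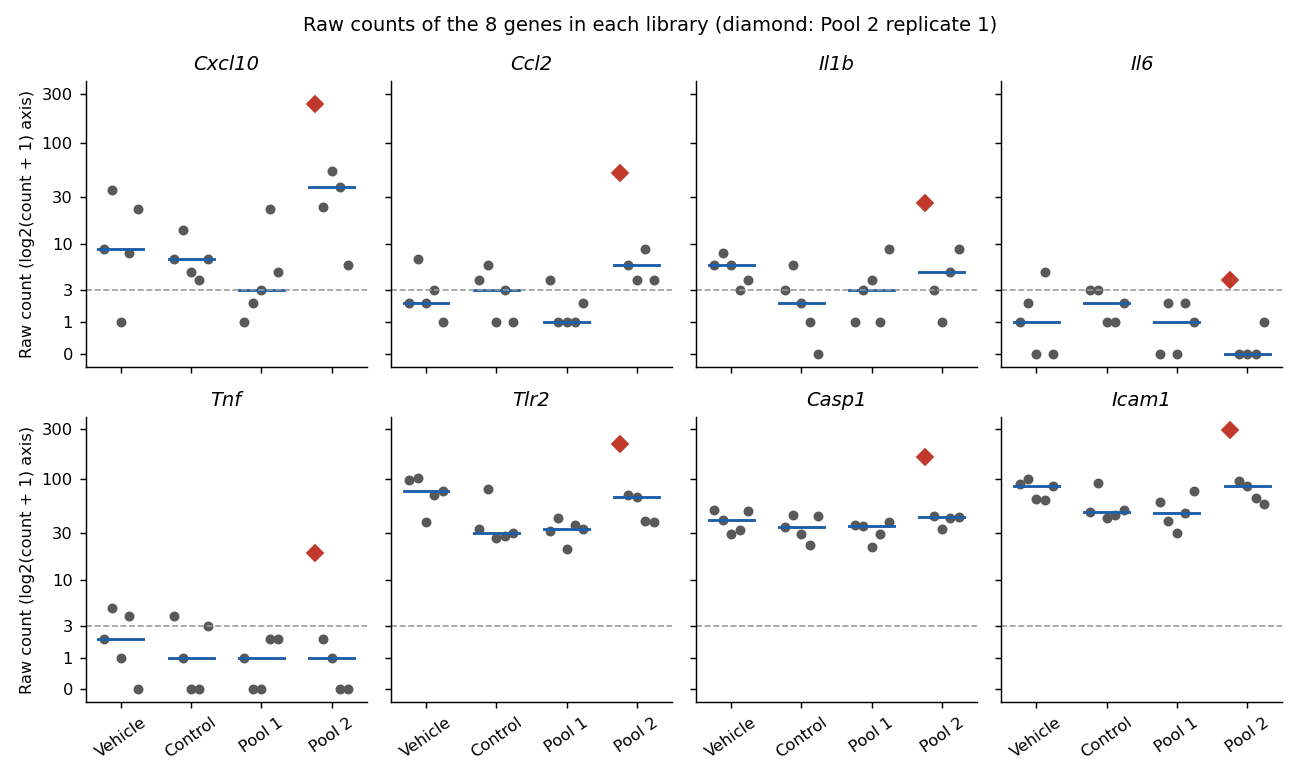
Raw counts of each gene in the 20 libraries, on a log2(count + 1) axis, by group, where points are libraries, the blue line is the group median, the red diamond is Pool 2 replicate 1 and the dashed line is the floor of 3 counts. The diamond is the highest point of 7 of the 8 panels, and most points of Il6 and Tnf lie on or under the floor.

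Cell type markers moved with these genes in Pool 2 replicate 1. The summed level of 12 microglial markers was 1593 CPM in it and 457 to 770 CPM in the other 19 libraries, and 10 of the 12 were highest there. The summed level of 13 blood leukocyte markers was 114 CPM against 9.71 to 32.4 CPM elsewhere, and 12 of the 13 were highest there. Its leading markers Lyz2 and Ptprc are also made by microglia, while the T cell gene Cd3e had 27 counts in this library against at most 11 elsewhere and the neutrophil gene S100a8 19 against at most 9. All 5 hemoglobin and erythroid genes were highest there too (summed 182 CPM against 34.8 to 97.7), as were 8 of 11 astrocyte markers (7950 CPM against 4917 to 6467) and 8 of 10 endothelial markers (338 CPM against 145 to 278). Neuronal markers (2448 CPM, within 2154 to 3092) and leptomeningeal fibroblast markers (61.5 CPM, within 36.8 to 192) were highest elsewhere. In bulk tissue, more cells of a type and more RNA per cell cannot be told apart, and the part of these cell types in the levels of the 8 genes was not tested.

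**Figure D2:**
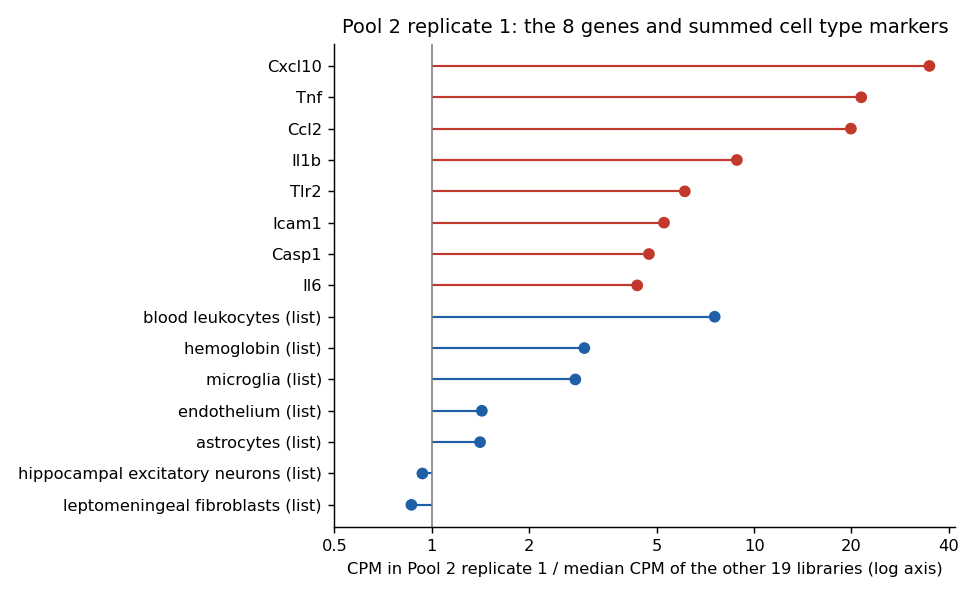
Level in Pool 2 replicate 1 divided by the median of the other 19 libraries, on a log axis, for the 8 genes (red, CPM) and for 7 marker lists (blue, summed CPM). The genes run from 4.34 for Il6 to 34.9 for Cxcl10, blood leukocyte markers reach 7.54, microglial markers 2.79, and the neuronal and leptomeningeal lists stay under 1.

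Past the threshold means a change of 0.3 or more on the log2 scale, in either direction, with an unadjusted p under 0.05 in edgeR's quasi-likelihood test over all 25190 genes. Beside it, each of the 8 genes was given a two-sided exact permutation test over libraries, on log2(CPM + 0.1), a test added after the data were seen, whose smallest possible p is 0.00794 for 5 libraries against 5 and 0.0159 for 4 against 5. Of its 32 tests, unadjusted, 9 gave a p under 0.05 with all libraries and 6 without Pool 2 replicate 1. Tests of Control against Vehicle and of Pool 1 against Control do not hold that library and are the same in both counts. Among tests of Pool 2, those under 0.05 were Cxcl10 against Control and Ccl2, Cxcl10, Icam1, Casp1 and Tlr2 against Pool 1. Without that library they were Il6 against Control, a fall at the floor, and Ccl2 and Cxcl10 against Pool 1. With all 20 libraries, 6 of the 8 genes rose past the edgeR threshold in Pool 2 against Control (Cxcl10, Ccl2, Il1b, Icam1, Tlr2 and Casp1), where 5.2% of all genes rose and 1.01% fell. Without Pool 2 replicate 1, only Cxcl10 rose and Il6 fell, where 3.31% of all genes rose and 1.17% fell. In Pool 2 against Pool 1, 5 of the 8 rose (Cxcl10, Ccl2, Tlr2, Icam1 and Casp1), where 5.66% of all genes rose and 1.16% fell. Without that library Cxcl10, Ccl2 and Icam1 rose, where 3.67% of all genes did. None of the 8 passed in Pool 1 against Control, where 1.48% of all genes rose and 1.99% fell, and the smallest edgeR adjusted p of the 8 was 0.963 (Il6). In Control against Vehicle, Tlr2 fell with all 20 libraries, where 1.7% of all genes rose and 3.41% fell, and Tlr2 and Icam1 fell in the fit without Pool 2 replicate 1, where 3.88% fell. That library belongs to neither group, and its removal changed the shared estimate of the spread and not the means. After Benjamini-Hochberg adjustment over all genes, edgeR left 0 of the 8 and 0 of all genes under 0.05 in each comparison, although 1314 to 2146 genes had an unadjusted p under 0.05. DESeq2 put 1 of the 8 under 0.05 after adjustment, Cxcl10 in Pool 2 against Pool 1 (adjusted p = 0.0460), and 0 to 115 of all genes. DESeq2 was run on all 20 libraries only, so this call was not tried without Pool 2 replicate 1. The edgeR adjusted p of Cxcl10 in that comparison was 0.277 with that library and 0.765 without it. Pool 1 and Pool 2 were set against the same Control libraries, so those contrasts are not independent.

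**Figure D3:**
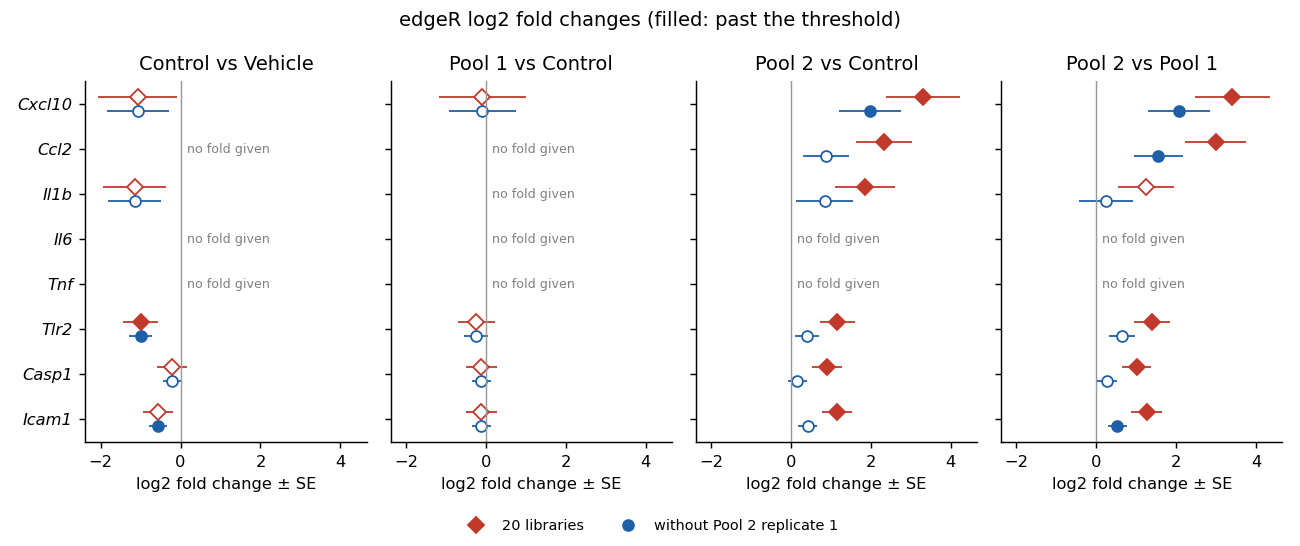
edgeR log2 fold changes with their SE for each gene in the 4 comparisons, with all 20 libraries (red diamonds) and without Pool 2 replicate 1 (blue circles), where filled symbols passed the threshold. In Pool 2 against Control the Cxcl10 value moves from 3.31 to 1.98 and stays past the threshold, while Casp1 moves from 0.90 to 0.16 and does not.

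Cxcl10, the interferon-responsive T cell attractant (chr5:92346638-92348889, minus strand, GRCm38), had the largest fold change in Pool 2 against Control of the 6 genes for which a fold is given. Its counts were 9, 35, 1, 8 and 23 in the Vehicle libraries, 7, 14, 5, 4 and 7 in Control, 1, 2, 3, 23 and 5 in Pool 1, and 239, 24, 54, 38 and 6 in Pool 2. Replicates 1 to 4 of Pool 2 therefore lay above every Control library (4 of 5), and replicate 5 lay within the Control range. Vehicle reached 1.515 CPM, so Pool 2 replicates 2 and 5 lay within the Vehicle range, at 0.935 and 0.258 CPM. Pool 2 replicates 4, 3 and 1 lay above it, at 1.586, 2.25 and 10.9 CPM. Pool 2 was not tested against Vehicle. The mean was 3.19 ± 4.39 CPM in Pool 2 (SD, n = 5), or 1.26 ± 0.856 without replicate 1 (n = 4), against 0.313 ± 0.149 in Control, 0.295 ± 0.394 in Pool 1 and 0.671 ± 0.604 in Vehicle. Against Control, Cxcl10 rose by a log2 fold change of 3.31 (SE 0.93, edgeR adjusted p = 0.479), with an exact permutation p = 0.0317. Without replicate 1 it rose by 1.98 (SE 0.77, edgeR adjusted p = 0.855), with 3 of 4 Pool 2 libraries above every Control library, while the exact permutation test did not pass (p = 0.0635). Against Pool 1 it rose by 3.40 (SE 0.94, exact permutation p = 0.0238) and, without replicate 1, by 2.07 (SE 0.77, exact permutation p = 0.0476). The Pool 1 and Pool 2 ranges overlapped through Pool 1 replicate 4, with 23 counts, and Pool 2 replicate 5. With a further library of the groups compared left out in turn beside replicate 1, a choice made after seeing the data, the rise against Control ranged from 1.54 to 2.31 and passed in 8 of 9 fits. The exception left out Pool 2 replicate 3, and the same library was the exception against Pool 1, where 8 of 9 fits also passed (1.63 to 3.33). Cxcl10 did not pass between Control and Vehicle (log2 fold change -1.07, SE 0.99) or between Pool 1 and Control (-0.09, SE 1.09).

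Other cell markers differed beside Cxcl10 in the remaining 4 Pool 2 libraries. Leukocyte markers summed to 18.5 to 28.1 CPM there, against 10.8 to 22.0 CPM in Control and 9.71 to 13.9 CPM in Pool 1. These 4 libraries lay within the Vehicle range of 12.5 to 32.4 CPM. Of the 13, 3 were higher past the threshold against Control, where 3.31% of all genes were, while 11 of the 13 were near the floor. Leptomeningeal fibroblast markers summed to 57.3 to 192 CPM, against 36.8 to 72.0 CPM in Control and 43.0 to 102 CPM in Vehicle. Against Control, 3 of 10 were higher past the threshold beside the same share. No microglial, endothelial, astrocyte or hemoglobin marker passed in that comparison (0 of 12, 0 of 10, 0 of 11 and 0 of 5 in edgeR), while the neuronal marker Neurod6 was lower (log2 fold change -0.39, SE 0.17, edgeR adjusted p = 0.927). More markers passed in the same 4 libraries against Pool 1, where Cxcl10, Ccl2 and Icam1 rose. There 8 of 10 leptomeningeal, 5 of 13 leukocyte, 4 of 11 astrocyte (Gfap, Aqp4 and Lcn2 among them) and 1 of 12 microglial markers were higher past the threshold, where 3.67% of all genes were. In the same fit Gfap (log2 fold change -0.49, SE 0.16) and Lcn2 (-3.91, SE 1.5) were lower past the threshold in Pool 1 than in Control. They were 2 of 11 astrocyte markers, where 2.2% of all genes were lower. Astrocyte markers summed to 4948 to 6202 CPM in the 4 libraries and 5027 to 5752 CPM in Pool 1, and leptomeningeal markers to 36.9 to 103 CPM in Pool 1. The part of these cell types in the levels of the 8 genes was not tested here either.

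Ccl2, the monocyte attractant (chr11:82035571-82037453, plus strand), was near the floor, and only Pool 2 replicate 1 held more than 9 counts. The Pool 2 median was 6 counts, or 5 without replicate 1. Its counts were 2, 7, 2, 3 and 1 in Vehicle, 4, 6, 1, 3 and 1 in Control, 4, 1, 1, 1 and 2 in Pool 1, and 52, 6, 4, 9 and 4 in Pool 2. Every Pool 2 library lay above every Pool 1 library in CPM, the lowest at 0.167 CPM and the highest Pool 1 library at 0.162 CPM, a gap smaller than the worth of 1 count. Against Pool 1, Ccl2 rose by a log2 fold change of 2.99 (SE 0.76, edgeR adjusted p = 0.210), with an exact permutation p = 0.00794, the smallest possible. Without replicate 1 it rose by 1.55 (SE 0.61, edgeR adjusted p = 0.784), with an exact permutation p = 0.0159, again the smallest possible. Against Control it rose by 2.32 in edgeR with all libraries (SE 0.70), while the exact permutation test did not pass (p = 0.0794). Without replicate 1 the log2 fold change against Control was 0.87 (SE 0.57, edgeR adjusted p = 0.954), which did not pass, and the Pool 2 and Control ranges overlapped in both settings.

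Il1b, the interleukin 1 beta precursor (chr2:129364570-129371139, minus strand), had 6, 8, 6, 3 and 4 counts in Vehicle, 3, 6, 2, 1 and 0 in Control, 1, 3, 4, 1 and 9 in Pool 1, and 26, 3, 1, 5 and 9 in Pool 2. All 4 groups overlapped, and Pool 2 held both the highest library and libraries at or under the floor. Against Control, Il1b rose by a log2 fold change of 1.85 in edgeR with all libraries (SE 0.74, adjusted p = 0.559), while the exact permutation test did not pass (p = 0.175). Without replicate 1 the value was 0.84 (SE 0.71, edgeR adjusted p = 0.975), which did not pass. Against Pool 1 it was 1.25 with all libraries (SE 0.70, edgeR adjusted p = 0.662) and 0.25 without replicate 1 (SE 0.68), neither past the threshold. The 12 counts of the Control group against 27 in Vehicle gave a log2 fold change of -1.15 (SE 0.78, edgeR adjusted p = 0.828), short of the threshold, although the exact permutation test gave p = 0.0397.

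Il6, a cytokine of acute inflammation (chr5:30013114-30019981, plus strand), had 1, 2, 0, 5 and 0 counts in Vehicle, 3, 3, 1, 1 and 2 in Control, 0, 2, 0, 2 and 1 in Pool 1, and 4, 0, 0, 0 and 1 in Pool 2. Differences between groups were thus of a few counts a library. Il6 did not pass in any comparison with all 20 libraries. Without replicate 1 it fell in Pool 2 against Control (edgeR adjusted p = 0.931, exact permutation p = 0.0317), with 1 count in 4 libraries against 10 counts in 5, and all 9 of those libraries were at or under the floor.

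Tnf, the tumour necrosis factor gene (chr17:35199381-35202007, minus strand), had 2, 5, 1, 4 and 0 counts in Vehicle, 4, 1, 0, 0 and 3 in Control, 1, 0, 0, 2 and 2 in Pool 1, and 19, 2, 1, 0 and 0 in Pool 2. The 19 counts of Pool 2 replicate 1 were the only value above 5 in any library. Tnf passed in no comparison with all 20 libraries or without replicate 1, with edgeR adjusted p = 0.815 for Pool 2 against Control and 0.987 without replicate 1, so no change was detectable at this depth. Against Pool 1 it passed in 2 of the fits that left out another library, those without Pool 2 replicate 4 or 5 (edgeR adjusted p = 0.609 and 0.525), which keep the 19 counts of replicate 1.

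Tlr2, the receptor for bacterial lipoproteins (chr3:83836272-83841767, minus strand), was well above the floor. Its levels were 4.09, 4.46, 1.53, 3.12 and 3.54 CPM in Vehicle, 1.48, 3.17, 1.24, 1.11 and 1.33 in Control, 1.25, 1.88, 1.02, 1.55 and 1.37 in Pool 1, and 9.92, 2.77, 2.79, 1.63 and 1.63 in Pool 2. Vehicle was high apart from replicate 3, Control was low apart from replicate 2, and 4 of 5 Control libraries lay below every Vehicle library. The group means ran from 3.75 ± 3.50 CPM in Pool 2 (SD, n = 5) and 3.35 ± 1.14 in Vehicle to 1.67 ± 0.853 in Control and 1.42 ± 0.325 in Pool 1. Without replicate 1, Pool 2 stood below Vehicle in this order, at 2.20 ± 0.663 CPM (n = 4). In Control against Vehicle, Tlr2 fell by a log2 fold change of 1.00 with all 20 libraries (SE 0.44, edgeR adjusted p = 0.739), with an exact permutation p = 0.0238. In the fit without Pool 2 replicate 1 the size was the same and the SE was 0.29 (edgeR adjusted p = 0.644). With all 20 libraries Tlr2 rose in Pool 2 in edgeR by 1.16 against Control (SE 0.44), where the exact permutation test did not pass (p = 0.103), and by 1.39 against Pool 1 (SE 0.45, exact permutation p = 0.0317). Without replicate 1 these values were 0.40 (SE 0.31) and 0.64 (SE 0.32, exact permutation p = 0.0635), and neither passed in edgeR. The neighbours Control and Pool 1 did not differ past the threshold (-0.24, SE 0.46).

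The Tlr2 difference between Control and Vehicle was sensitive to single libraries. In edgeR with all other libraries kept, it missed the threshold without Control replicate 1, 3, 4 or 5 or without Vehicle replicate 1, 2 or 5. Its log2 fold change ranged from -1.37 to -0.87 over the 20 fits that each left out a library. Leukocyte markers summed to 12.5 to 32.4 CPM in Vehicle and 10.8 to 22.0 CPM in Control. Of these, 1 of 13 was lower past the threshold, a single gene, where 3.41% of all genes were lower. No microglial marker passed (0 of 12 in edgeR, summed 501 to 733 CPM against 457 to 715 CPM). Their part in the Tlr2 level was not tested.

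Icam1, the endothelial ligand of leukocyte integrins (chr9:21015985-21028817, plus strand), stood at 3.75, 4.33, 2.58, 2.76 and 3.96 CPM in Vehicle, 2.15, 3.61, 1.93, 1.79 and 2.21 in Control, 2.43, 1.75, 1.46, 2.03 and 3.16 in Pool 1, and 13.6, 3.74, 3.58, 2.75 and 2.49 in Pool 2. As with Tlr2, Control replicate 2 was high within its group and the other 4 Control libraries lay below every Vehicle library. Without replicate 1 the Pool 2 mean was 3.14 ± 0.612 CPM (SD, n = 4), between Vehicle at 3.48 ± 0.764 and Control at 2.34 ± 0.731 (n = 5 each), with Pool 1 at 2.16 ± 0.661. Against Pool 1, Icam1 rose by a log2 fold change of 1.26 (SE 0.38, edgeR adjusted p = 0.332), with an exact permutation p = 0.0317. Without replicate 1 it rose by 0.53 in edgeR (SE 0.24, adjusted p = 0.869), while the exact permutation test did not pass (p = 0.0635). Only 2 of those 4 Pool 2 libraries lay above every Pool 1 library. Against Control it rose by 1.15 in edgeR with all libraries (SE 0.38, exact permutation p = 0.0556), and without replicate 1 the value was 0.42 (SE 0.24), short of the threshold. Between Control and Vehicle the log2 fold change was -0.57, with an SE of 0.38 in the fit of all 20 libraries and an SE of 0.22 without Pool 2 replicate 1, where it passed. The exact permutation test, which draws on those groups alone, gave p = 0.0397. Pool 1 and Control, neighbours in the order of levels, had a log2 fold change of -0.11 (SE 0.39).

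Casp1, which encodes caspase 1 (chr9:5298508-5307290, plus strand), stood at 2.11, 1.73, 1.17, 1.40 and 2.28 CPM in Vehicle, 1.52, 1.79, 1.33, 0.914 and 1.95 in Control, 1.46, 1.57, 1.07, 1.25 and 1.58 in Pool 1, and 7.40, 1.71, 1.37, 1.75 and 1.85 in Pool 2. Apart from Pool 2 replicate 1, all libraries lay between 0.914 and 2.28 CPM. With it, Casp1 rose by a log2 fold change of 0.90 against Control in edgeR (SE 0.37, adjusted p = 0.569), where the exact permutation test did not pass (p = 0.246), and by 1.01 against Pool 1 (SE 0.37, exact permutation p = 0.0476). Without it the values were 0.16 (SE 0.24, edgeR adjusted p = 0.997) and 0.27 (SE 0.24), neither past the threshold. Between Control and Vehicle the log2 fold change of Casp1 was -0.21 (SE 0.37), and between Pool 1 and Control it was -0.11 (SE 0.38).

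The wider pathways of the 8 genes were read as 7 lists of ligands, receptors and adaptors, with 104 of 106 genes measured. The lists were chosen with earlier results of these data known, so their counts beside the shares of all genes are a description. In Pool 2 against Control, 34 of the 104 rose and 0 fell in edgeR with all libraries, where 5.2% of all genes rose, 28 of them outside the 8 genes, and the median log2 fold change was 0.35 against 0.00 over all genes. Without replicate 1, 7 rose and 1 fell (Il6), where 3.31% of all genes rose and 1.17% fell, and the median was 0.12. In Pool 2 against Pool 1 the counts were 46 higher and 0 lower, where 5.66% of all genes were higher, with a median of 0.53, and without replicate 1 they were 14 higher and 0 lower, where 3.67% were higher and 1.06% lower, with a median of 0.22. Control against Vehicle gave 0 higher and 7 lower with all libraries and 0 higher and 20 lower without Pool 2 replicate 1, where 3.41% and 3.88% of all genes were lower, with a median of -0.15 in both. Pool 1 against Control gave 0 higher and 1 lower, or 5 lower without Pool 2 replicate 1, where 1.99% and 2.2% of all genes were lower, with a median of -0.08.

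**Figure D4:**
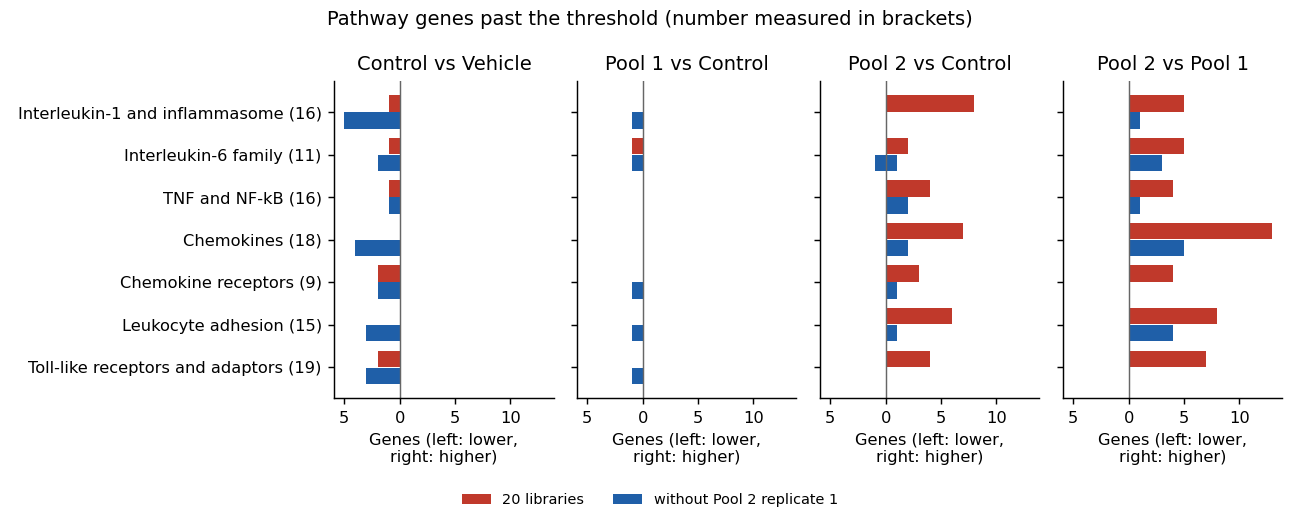
Number of genes past the threshold in 7 pathway lists for the 4 comparisons, with bars to the right for higher and to the left for lower genes, with all 20 libraries (red) and without Pool 2 replicate 1 (blue). In Pool 2 against Control the inflammasome list goes from 8 higher genes to 0 and the chemokine list from 7 to 2.

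Among ligands, 7 of 18 chemokines rose in Pool 2 against Control with all libraries, where 5.2% of all genes rose. Without replicate 1, 2 rose, Cxcl10 and its relative Cxcl9, where 3.31% of all genes rose. The same shares of all genes stand beside the counts of the other lists in this comparison. Of the 18, 12 were near the floor, Ccl2, Cxcl10 and Cxcl9 among them. Among their receptors, Ccr2, which binds Ccl2 and was near the floor, rose by a log2 fold change of 2.49 (SE 0.71) and, without replicate 1, by 1.52 (SE 0.61, edgeR adjusted p = 0.875), the only chemokine receptor of 9 to pass there. In the interleukin 1 and inflammasome list 8 of 16 rose, Casp1 and Il1b among them, and 0 of 16 passed without replicate 1. In the Toll-like receptor list, 4 of 19 rose, Tlr2 among them, and 0 of 19 passed without replicate 1. Ccr2 (-1.66, SE 0.58) and Cxcl9 (-2.89, SE 0.99) were lower past the threshold in Control than in Vehicle in the fit without replicate 1. Cxcl10 did not pass there, and 3.88% of all genes were lower.

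Downstream of the cytokines, Socs3, the feedback inhibitor of interleukin 6 signalling, rose in Pool 2 against Control by 1.07 (SE 0.30, edgeR adjusted p = 0.468) and, without replicate 1, by 0.66 (SE 0.25, edgeR adjusted p = 0.844). Both TNF receptors rose as well: without replicate 1 Tnfrsf1b rose by 0.40 (SE 0.16, edgeR adjusted p = 0.888) and Tnfrsf1a by 0.32 (SE 0.15, edgeR adjusted p = 0.933). They were 2 of 16 genes of the TNF and NF-kB list, where 3.31% of all genes rose. In the adhesion list 6 of 15 rose with all libraries, including Icam1 and the endothelial molecule Pecam1, where 5.2% of all genes rose. Without replicate 1 Pecam1 alone of the 15 rose (0.46, SE 0.17, edgeR adjusted p = 0.844), where 3.31% of all genes rose. Against Vehicle in the same fit, Control was lower past the threshold for Socs3 (-0.54, SE 0.24) and Tnfrsf1b (-0.53, SE 0.16). Tnfrsf1a and Pecam1 did not pass there, and 3.88% of all genes were lower. Pool 2 was not tested against Vehicle.

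Between Control and Vehicle, 7 genes of the lists fell with all libraries, in 5 of the 7 lists. They included Tlr2 and its partner receptor Tlr6 (log2 fold change -0.74, SE 0.34), the TNF receptor Tnfrsf1b (-0.53, SE 0.23) and the interleukin 6 receptor chain Il6ra (-0.33, SE 0.14). The chemokine receptor Ccr2 (-1.66, SE 0.74) and the inflammatory caspase Casp4 (-1.30, SE 0.58) were among them too, and the edgeR adjusted p of each of the 7 lay between 0.734 and 0.739. No chemokine and no adhesion gene was among the 7, but without Pool 2 replicate 1 the 20 lower genes came from all 7 lists, with 4 chemokines (Cxcl16, Ccl5 and Cxcl9 among them) and the adhesion genes F11r, Icam1 and Vcam1. That library belongs to neither group, so its removal changed the shared spread. The median log2 fold change of the lists was -0.15 in both fits, where 3.41% and 3.88% of all genes were lower.

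Levels of Tlr2 and Icam1 tended to be high in the same libraries, and Cxcl10 and Casp1 went with both more than with each other. The libraries come from all 4 groups and group means were not removed, so differences between groups enter these correlations. Over the 19 libraries without Pool 2 replicate 1, which share tissue, chemistry and depth, Spearman's rho between Icam1 and Tlr2 was 0.81, between Cxcl10 and Tlr2 0.65, between Cxcl10 and Icam1 0.63, between Icam1 and Casp1 0.62, between Casp1 and Tlr2 0.60 and between Cxcl10 and Casp1 0.42, while any other pair of the 8 genes reached at most 0.49, for Ccl2 and Icam1. The genes nearest to Cxcl10 in level across those libraries were Gbp2 (rho 0.89), Phf11d (0.87) and Lrrc3 (0.86). Those nearest to Icam1 were the class I histocompatibility gene H2-K1 (0.90), S1pr3 (0.88) and 9330175E14Rik (0.88), and those nearest to Tlr2 were the chemokine Cxcl16 (0.90), Lcp2 (0.89) and Oas1a (0.88). Casp1 was nearest to Tbx15 (0.86), Spp1 (0.83) and Prg4 (0.82). For these 4 genes rho over all 20 libraries lay between 0.67 and 0.91 for the same partners. For Il1b, Il6, Tnf and Ccl2 the nearest genes (Kcnmb1, Gm45428, Slc27a1 and Cdc20, rho 0.80 to 0.82) rest on counts of a few reads. Each list is the top 3 of 16660 genes, so high values would arise from that choice alone, and they are given as a description.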

How the data were processed

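The authors sequenced 20 mouse hippocampal poly(A) libraries (4 groups of 5), checked them with FastQC (0.11.5), aligned reads with STAR to GRCm38 and counted them per gene against GENCODE M20. The deposited values are raw read counts, and no deposited gene sums to fewer than 10. Groups came from the treatment labels. The sources used here do not say that each library was a separate mouse, so p-values measure the spread between libraries.

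All 25190 genes were tested in edgeR (4.0.16, R 4.3.3): TMM scaling, 1 robust quasi-likelihood fit of the 4 groups, Benjamini-Hochberg adjustment over all genes. The threshold, the study's own cut for changed genes, was a log2 change of 0.3 or more in either direction with an unadjusted p under 0.05. In its calls the study further required a mean count of at least 10. That filter, run as an alternative, removes Il1b, Il6, Tnf and Ccl2. Gene lengths came from GENCODE M21 (99.8% of genes). The fit was tested on simulated data. Alternatives were DESeq2 (1.42.0), its size factors, count filters, fits of 2 groups, a non-robust spread, a replicate block, left-out libraries and, added after seeing the data, exact permutation. Named genes were the 8, the 3 nearest to each in rank correlation and up to 3 per pathway list with the smallest p. Genes and lists were chosen with earlier results of these data known. Same-numbered libraries did not deviate together (correlations -0.319 to 0.277).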

Additional observations from a re-analysis of the deposited data

Results flagged for a closer look

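Within each group of 5, the highest or lowest library was compared with its nearest neighbour, and the gap passed Dixon's critical value of 0.71 of the group's range in 10 of 32 groups of gene and condition. That value assumes normally distributed levels, which low counts are not. The genes also share libraries, so the 10 are not separate events and are given as a description. Of the 10, 7 were the single library Pool 2 replicate 1, already set apart above: Il6 at 0.183 CPM (4 counts, near the floor), Tnf at 0.868 CPM, Ccl2 at 2.38 CPM, Cxcl10 at 10.9 CPM, Icam1 at 13.6 CPM, Casp1 at 7.40 CPM and Tlr2 at 9.92 CPM. Il1b was also highest in that library, but its gap was under the critical value. The library's raised microglial, leukocyte and hemoglobin markers were given with the results above, and their part in these values was not tested.

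Control replicate 2 stood above the other 4 Control libraries for both Icam1 (3.61 CPM, 91 counts) and Tlr2 (3.17 CPM, 80 counts). For Cxcl10, Pool 1 replicate 4 stood above the other 4 Pool 1 libraries at 0.991 CPM (23 counts).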

How the results depend on the processing

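The number of the 8 genes past the threshold was 1 (Control against Vehicle), 0 (Pool 1 against Control), 6 (Pool 2 against Control) and 5 (Pool 2 against Pool 1), and the same numbers passed with the replicate block and in DESeq2. Same-numbered libraries did not pair, since only 1 of all 20 correlated best with a library of its own number, and the block moved no count of the 8. Leaving out each library in turn gave 0 to 2, 0 to 0, 2 to 6 and 3 to 6 genes, and the lowest values against Control and Pool 1 came without Pool 2 replicate 1. Leaving out Vehicle replicate 4 as well gave 2, 0, 2 and 3. The fit of only the 2 groups gave 2 in Control against Vehicle, adding Icam1, and took Tlr2 and Casp1 below the threshold in Pool 2 against Control. Casp1 also missed it there without Control replicate 4 (log2 fold change 0.75). In Pool 2 against Pool 1, Il1b passed without Pool 1 replicate 5 (1.87), Pool 2 replicate 2 (1.49) or Pool 2 replicate 3 (1.55), and Tnf passed without Pool 2 replicate 4 or 5. In the exact permutation test, Cxcl10 alone of the 6 passed in Pool 2 against Control, and Il1b and Icam1 joined Tlr2 in Control against Vehicle.

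Signs turned in Pool 1 against Control, where no gene passed. With a library left out, Cxcl10 ranged from -1.35 to 0.23 (0.20, 0.13, 0.07 and 0.02 without Pool 1 replicates 1, 2, 3 and 5), Icam1 from -0.29 to 0.10 (0.00 without Pool 1 replicate 3) and Tlr2 from -0.36 to 0.14, the 3 highest values coming without Control replicate 2. The cause was not tested. Of 627 alternative fold changes, 580 kept their direction and their side of the threshold. Counts of all genes past it fell under filters on low counts, which test fewer genes: at a mean count of 10, higher and lower genes became 240 and 556 from 427 and 858 (Control against Vehicle), 155 and 250 from 374 and 502 (Pool 1 against Control), and 853 and 117 from 1311 and 255 (Pool 2 against Control), and lower genes 154 from 292 (Pool 2 against Pool 1). The edgeR filter gave 483 lower genes (Control against Vehicle), 178 higher and 248 lower (Pool 1 against Control), 788 higher (Pool 2 against Control) and 928 higher from 1426 (Pool 2 against Pool 1), and leaving out both libraries gave 852 higher in Pool 2 against Control. With a library left out, higher and lower genes ranged from 259 to 793 and 659 to 1123, 313 to 481 and 397 to 768, 835 to 1436 and 226 to 496, and 924 to 1635 and 209 to 432. Il1b, Il6, Tnf and Ccl2 fall under that filter, and outside Pool 2 replicate 1 their counts of 0 to 9 limit what can be seen of them.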
